A study of Mus musculus with 6 samples.

Results

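The genes described here encode histone lysine methyltransferases, which write methyl marks on histone tails, and histone lysine demethylases, which erase them. They were taken by symbol from the protein-coding rows of the expression table (the Kdm, Kmt2, Kmt5, Setd, Setdb, Ezh, Nsd, Ehmt and Suv39h series), which gave 45 of 54532 genes. The RNA, selected for poly-A tails, came from the CD45-negative fraction of tumours that MC38 cells, a mouse colon cancer line, formed under the skin. There were 3 libraries whose tumour cells carried a CRISPR/Cas9 knockout of Npm1 and 3 libraries from tumours labelled wild type. All tumours grew in wild-type C57BL/6 mice, and CD45 microbeads were used to separate off leukocytes. Animal age, the number of knockout clones and whether each library came from its own animal are not stated in the labels, so p-values measure the spread between these libraries, which may be technical. Levels are FPKM, fragments per kilobase of gene length, scaled by a total for each library.

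Methylation of H3K4 marks promoters and enhancers in use, methylation of H3K36 follows transcribed gene bodies, and methylation of H3K9, H3K27 and H4K20 is linked to silent chromatin. The writers share a SET catalytic domain. Most erasers are JmjC oxygenases that need iron and 2-oxoglutarate, while Kdm1a and Kdm1b are flavin-dependent oxidases. Npm1 encodes nucleophosmin, a nucleolar histone chaperone that also takes part in ribosome assembly.

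Library depth, the sum of fragments recovered from the FPKM values, was 17333843 to 18662688 fragments in the knockout and 16917778 to 18255574 in the wild type. The totals that the FPKM scaling implies differed from these sums. They were 17635351 to 18775780 in the knockout and 16244426 to 18985624 in the wild type. Npm1 itself was at 191, 159 and 128 FPKM in the knockout libraries, against 234, 169 and 195 FPKM in the wild-type libraries. The groups overlapped (log2 change -0.33, SE 0.197, limma adjusted p = 0.268, n = 3 each; exact two-sided permutation p = 0.2, where 0.1 is the smallest possible), so this transcript does not check the labels. With the trend of expression with transcript length and GC content removed, as described below, the change was -0.74 (limma adjusted p = 0.0477). Of the 8 epithelial markers for the labelled colon cancer cells, Lgals4 alone reached the filter of a mean of 1 FPKM, at 1.004 to 1.33 FPKM in the knockout and 1.03 to 1.89 FPKM in the wild type. Cdh1 was at 0.824 FPKM or less and Epcam at 0.0268 FPKM or less, and Epcam, Krt18, Krt20 and Cdx2 were at 0 in every wild-type library. The 8 summed to 1.40 to 1.899 FPKM in the knockout and 1.92 to 2.58 FPKM in the wild type. Leukocyte markers summed to 3.97 to 4.96 FPKM in the knockout and 2.59 to 7.36 FPKM in the wild type, with Ptprc, which encodes CD45, at 0.0134 FPKM or less and Cd3e at 0. Knockout replicate 3 and wild-type replicate 1 stood apart from the other libraries of their groups, as set out below. Fibroblast markers summed to 1443 to 1634 FPKM in the knockout and 1145 to 1713 FPKM in the wild type. Most of this was Col3a1, at 1149 to 1335 FPKM in the knockout and 895 to 1383 FPKM in the wild type. Lum and Thy1 were at 4.77 FPKM or less in every library.

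Of the 45 genes, 41 reached a mean of 1 FPKM over the 6 libraries and were tested. Changes are differences in mean log2(FPKM + 1), with the wild type subtracted from the knockout, so those of low genes are understated, and p-values are Benjamini-Hochberg adjusted over all 11287 genes tested. At an adjusted p under 0.05 in limma, 8 of the 41 fell and 0 rose. Over all genes tested, 8.30% fell and 5.91% rose. The 8 were the H3K4 writers Setd1b, Kmt2b, Kmt2d and Setd1a, the H3K27 eraser Kdm6b, the H3K36 eraser Kdm2a, the H3K9 eraser Kdm3b and the H3K4 eraser Kdm5c. The median change was -0.23 over the 41 and 0.02 over all genes tested, and 33 of the 41 values lay below 0 (80.5%, against 47.6% of all genes tested). The groups did not overlap, with the knockout lower, for 13 of the 41, where 19.6% of all tested genes did so. With the knockout higher this held for 0, where 16.0% of all tested genes did so. Of the 41, 24 were in the longest of 5 equal length classes of the protein-coding genes tested. Over all genes of that class, 75.0% of values lay below 0. The knockout was lower without overlap for 36.4% of that class, and higher for 80 of its 2003 genes. None of the 8 calls remained once a trend of expression with transcript length and GC content was removed from each library (0 of 41 fell and 0 rose, where 1.21% of all genes fell and 0.825% rose). That dependence is described below beside the values.

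The count of 8 depended on which libraries were kept, and so did the count over all genes. It was 0 when knockout replicate 1 was left out, where 0.594% of all genes fell, and 0 when wild-type replicate 3 was left out, where 0.00886% fell. Omitting knockout replicate 2 left 3 of the 8 (1.13% of all genes fell). Omitting wild-type replicate 1 left 3 of the 8 and added Kdm4a, for a count of 4 (6.45%), and omitting wild-type replicate 2 left 6 of the 8 (5.33%). Without knockout replicate 3 it was 12, with the same 8 and Kdm4b, Kmt2a, Nsd2 and Setd5 added, where 1465 of all genes fell. Kdm6b, Kmt2b and Setd1b passed in each of these fits except those without knockout replicate 1 (limma adjusted p = 0.0534, 0.0528 and 0.0543) and without wild-type replicate 3 (limma adjusted p = 0.065, 0.0603 and 0.0584). The direction of the 8 was the same in all of them, with Kdm6b at -2.24 to -1.66, Setd1b at -1.40 to -1.06 and Kmt2b at -1.32 to -1.06. These 3 were also the members that passed after rescaling to TPM (6.29% of all genes), which shifted the median of all genes tested by -0.10.

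In this bulk RNA, fewer cells of a type and less RNA per cell cannot be told apart. Some markers of other cells also differed between the groups. Of 6 pericyte and smooth muscle markers, 4 were tested and 3 fell (Cspg4, Notch3 and Mcam), where 8.30% of all genes tested fell. The list summed to 31.4 to 38.1 FPKM in the knockout and 51.1 to 66.9 FPKM in the wild type. Myh11 was at or below 0.0992 FPKM in every library. Rgs5 was at 0.397 to 0.474 FPKM in the knockout and 0.244 to 0.651 FPKM in the wild type. Of 8 fibroblast markers tested, Dcn rose and Col1a1 fell. With the length and GC trend removed, 0 markers of either list passed. Cspg4 was then at -0.28, Notch3 at -0.078, Mcam at -0.61, Dcn at 0.92 and Col1a1 at -1.15. The 6 endothelial markers were below the filter, at summed levels of 0.770 to 1.49 FPKM in the knockout and 1.48 to 4.38 FPKM in the wild type. The 4 erythroid markers summed to 12.6 to 81.1 FPKM in the knockout and 1.46 to 22.4 FPKM in the wild type, and the 3 tested did not pass. The part of these cells in the changes of the 41 members was not tested.

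The members that were not tested were Kdm5b, at 0.331, 0.325 and 0.528 FPKM in the knockout and 0.490, 0.595 and 0.435 FPKM in the wild type, Setd4, at 0.275 to 0.464 FPKM in the knockout and 0.355 to 0.519 FPKM in the wild type, and Kdm4d and Kdm5d. Kdm4d, related to Kdm4a, had 1 fragment in knockout replicate 3 and 1 in wild-type replicate 1. Kdm5d, the Y-linked partner of Kdm5c, had 2 fragments in knockout replicate 2.

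Promoter sequences of 34 of the 45 genes were in the RefSeq table of GRCm38.p6, each running from 250 bases before to 50 bases after an annotated start. Kdm6b, Setd1b, Kmt2b, Kdm2a and Kdm3b were not among them. The 46 promoters of these 34 genes held a median of 28 CpG dinucleotides, against 7 over all 32851 promoters in the table. The GC box GGGCGG was found on either strand in 67.4% of them and in 35.7% of all promoters, CCAAT in 41.3% and 37.4%, CACGTG in 8.70% and 7.15%, and TATAAA in 2.17% and 13.6%. No motif of these 4 contains another. The promoters shown are those of the 3 members that fell and had one in the table (Kmt2d, Setd1a and Kdm5c), and, for contrast, of Kdm6a and Ezh2, whose values lay above 0. They lie at chr15:98871156-98871455 (minus strand), chr7:127777139-127777438 (plus strand), chrX:152232977-152233276 (plus strand), chrX:18162325-18162624 (plus strand) and chr6:47594981-47595280 (minus strand), and are written 5′ to 3′ on the gene's strand with GGGCGG or its reverse complement CCGCCC in capitals.
Kmt2d: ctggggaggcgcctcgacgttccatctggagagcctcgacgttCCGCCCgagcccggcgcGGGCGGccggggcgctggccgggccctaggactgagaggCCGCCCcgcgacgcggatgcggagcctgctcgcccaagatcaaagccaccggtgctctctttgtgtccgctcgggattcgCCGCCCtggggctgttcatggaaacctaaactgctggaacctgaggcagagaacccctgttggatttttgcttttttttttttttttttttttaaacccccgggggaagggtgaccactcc
Setd1a: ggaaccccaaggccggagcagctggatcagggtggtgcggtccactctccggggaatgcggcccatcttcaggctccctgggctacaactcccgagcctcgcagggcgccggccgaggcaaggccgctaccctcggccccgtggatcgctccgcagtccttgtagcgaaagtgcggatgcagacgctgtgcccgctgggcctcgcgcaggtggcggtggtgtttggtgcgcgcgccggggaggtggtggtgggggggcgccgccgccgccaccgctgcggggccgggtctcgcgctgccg
Kdm5c: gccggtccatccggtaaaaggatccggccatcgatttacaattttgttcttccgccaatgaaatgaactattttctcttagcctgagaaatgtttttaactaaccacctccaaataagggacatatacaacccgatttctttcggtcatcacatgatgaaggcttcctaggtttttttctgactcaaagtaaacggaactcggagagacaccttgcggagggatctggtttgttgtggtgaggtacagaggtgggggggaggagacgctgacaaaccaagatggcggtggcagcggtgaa
Kdm6a: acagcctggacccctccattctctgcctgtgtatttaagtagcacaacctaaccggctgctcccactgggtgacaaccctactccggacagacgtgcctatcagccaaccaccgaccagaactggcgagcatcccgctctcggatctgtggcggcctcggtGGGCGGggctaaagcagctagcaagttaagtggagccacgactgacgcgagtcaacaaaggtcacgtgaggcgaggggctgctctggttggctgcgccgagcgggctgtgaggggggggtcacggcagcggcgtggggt
Ezh2: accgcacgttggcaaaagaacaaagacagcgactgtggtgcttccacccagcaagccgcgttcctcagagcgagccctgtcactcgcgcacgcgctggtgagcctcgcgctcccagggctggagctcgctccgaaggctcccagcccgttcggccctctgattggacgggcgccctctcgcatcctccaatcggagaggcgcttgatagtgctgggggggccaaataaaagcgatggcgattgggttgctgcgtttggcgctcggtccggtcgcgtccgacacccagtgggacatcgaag
The box stood 4 times in the Kmt2d promoter, 0 times in those of Setd1a, Kdm5c and Ezh2 and 1 time in that of Kdm6a. The promoters held 27 CpG dinucleotides for Kmt2d, 35 for Setd1a, 13 for Kdm5c, 21 for Kdm6a and 31 for Ezh2. Neither count separated the members that fell from the others among these 5, and a match of letters is a description, not a binding site.

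Kdm6b, which removes methyl groups from H3K27 and is induced by inflammatory signals in macrophages, changed most. It was at 7.66, 6.73 and 14.1 FPKM in the knockout libraries, against 50.8, 22.5 and 42.1 FPKM in the wild-type libraries. Every knockout value lay below every wild-type value, and wild-type replicate 2 was nearest to the knockout. Its mean was 9.49 ± 3.997 FPKM in the knockout and 38.5 ± 14.5 FPKM in the wild type (SD, n = 3 each), and the log2 change was -1.90 (SE 0.314, 95% interval -2.60 to -1.1997, limma adjusted p = 0.013). Kdm6b lies on chromosome 11, 69398508 to 69413675, minus strand, GRCm38 (ENSMUSG00000018476). It shares 286 exonic bases, 4.11% of its own, with the antisense gene Kdm6bos, whose mean was 1.16 FPKM. With the length and GC trend removed its change was -1.11 (95% interval -1.80 to -0.42, limma adjusted p = 0.0764), the largest of the 41 in that fit.

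The other H3K27 erasers were far lower and did not pass. Kdm6a, the X-linked paralogue of Kdm6b and a subunit of the Kmt2c and Kmt2d complexes, was at 2.08, 1.596 and 2.59 FPKM in the knockout, against 2.56, 1.18 and 1.27 FPKM in the wild type (log2 change 0.24, 95% interval -0.25 to 0.72). Kdm7a was at 1.09, 0.913 and 1.84 FPKM in the knockout, against 2.98, 0.605 and 1.29 FPKM in the wild type (log2 change -0.12, 95% interval -0.79 to 0.55). The groups overlapped for both. Kdm6b stood at 3.69, 4.21 and 5.44 times the FPKM of Kdm6a in the knockout libraries and at 19.9, 19.1 and 33.1 times in the wild-type libraries. This ratio restates the fall of Kdm6b beside a gene that did not fall, and is not a separate result.

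**Figure D1:**
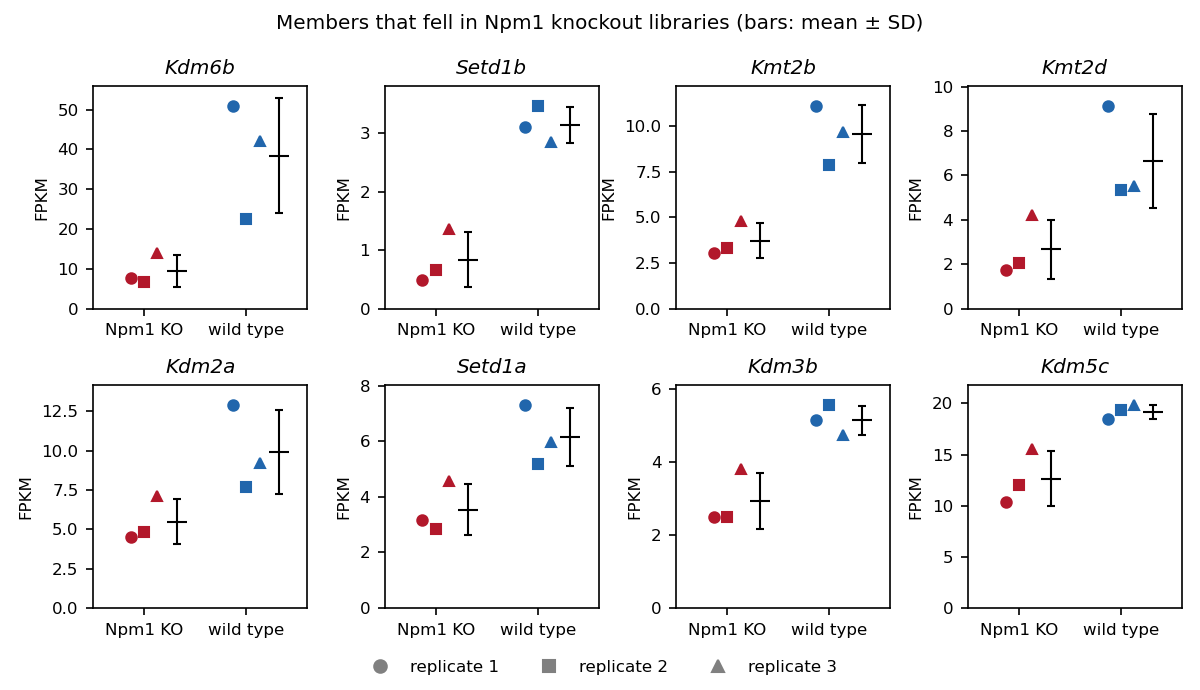
FPKM of the 8 members that fell, with 1 point per library (shape gives the replicate) and the mean ± SD of 3 libraries at the right of each group. Every knockout value lies below every wild-type value in each panel, and replicate 3 is the highest knockout library in all 8.

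The H3K4 writers were the role with the most calls: 4 of 7 fell and 7 of 7 had a value below 0. Their median change was -0.67. Over all genes tested 8.30% fell and 47.6% lay below 0, and in the longest length class 20.2% and 75.0%. The median transcript of the 7 was 8857 bases with a GC content of 57.0%, against 5953 bases and 49.7% over the 41. The part of length and GC content in these counts was not tested. Setd1b, a catalytic subunit of a COMPASS complex that lays down H3K4 trimethylation, was at 0.486, 0.653 and 1.37 FPKM in the knockout, against 3.099, 3.46 and 2.86 FPKM in the wild type. The groups were widely apart for a gene this low (log2 change -1.1999, SE 0.195, limma adjusted p = 0.0124, n = 3 each). Setd1b lies on chromosome 5, 123142193 to 123168629, plus strand (ENSMUSG00000038384). It passed the filter on low values through its wild-type libraries, since its knockout mean was 0.836 FPKM. Its paralogue Setd1a, which takes the same place in a sister complex, was at 3.16, 2.85 and 4.57 FPKM in the knockout, against 7.29, 5.19 and 5.98 FPKM in the wild type (log2 change -0.67, SE 0.185, limma adjusted p = 0.0408). Setd1a shares 51.8% of its exonic bases with Gm49388, annotated on the same strand and listed at a mean of 0.00922 FPKM, so its count is uncertain. Setd1a lies on chromosome 7, 127776670 to 127800122, plus strand (ENSMUSG00000042308).

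Kmt2b, a writer of H3K4 methylation at promoters, was at 3.02, 3.34 and 4.80 FPKM in the knockout, against 11.1, 7.89 and 9.69 FPKM in the wild type (log2 change -1.17, SE 0.185, limma adjusted p = 0.0113, n = 3 each). Kmt2b lies on chromosome 7, 30568858 to 30588726, minus strand (ENSMUSG00000006307). Its close relative Kmt2a, known for maintaining Hox gene expression, did not pass, at 2.59, 2.78 and 5.53 FPKM in the knockout and 8.31, 4.66 and 4.35 FPKM in the wild type (log2 change -0.56, limma adjusted p = 0.182). Knockout replicate 3 lay above 2 of the wild-type libraries there. Kmt2d, which with Kmt2c monomethylates H3K4 at enhancers, was at 1.76, 2.04 and 4.20 FPKM in the knockout, against 9.11, 5.32 and 5.51 FPKM in the wild type (log2 change -1.08, SE 0.263, limma adjusted p = 0.0288). Kmt2d lies on chromosome 15, 98831669 to 98871204, minus strand (ENSMUSG00000048154). Kmt2c was low, at 0.742, 0.729 and 1.47 FPKM in the knockout and 1.73, 0.803 and 0.843 FPKM in the wild type, and its groups overlapped (log2 change -0.095, limma adjusted p = 0.783). Kmt2d stood at 2.37, 2.80 and 2.86 times the FPKM of Kmt2c in the knockout libraries, against 5.28, 6.63 and 6.53 times in the wild-type libraries. This ratio restates the fall of Kmt2d beside a gene that did not pass, and is not a separate result. Setd7, which monomethylates H3K4 and several other proteins, did not pass (log2 change -0.22, limma adjusted p = 0.435). The 7 writers summed to 16.1, 16.8 and 28.6 FPKM in the knockout and 48.2, 32.7 and 34.7 FPKM in the wild type.

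With the length and GC trend removed, none of the H3K4 writers passed. Setd1b was then at -0.26 (95% interval -0.51 to -0.0046), Kmt2b at -0.25 (95% interval -0.57 to 0.07) and Setd1a at 0.0028 (95% interval -0.34 to 0.34). Kmt2d turned to 0.20 (95% interval -0.19 to 0.60), Kmt2a to 0.25 and Kmt2c to 0.47 (limma adjusted p = 0.0574). The median of the 7 was 0.08 in that fit.

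Among the H3K4 erasers, Kdm5c, an X-linked enzyme that removes H3K4 di- and trimethylation, fell. It was at 10.3, 12.1 and 15.6 FPKM in the knockout, against 18.5, 19.4 and 19.8 FPKM in the wild type (log2 change -0.58, SE 0.163, limma adjusted p = 0.0421, n = 3 each), and at -0.094 with the trend removed. Kdm5c lies on chromosome X, 152233020 to 152274535, plus strand (ENSMUSG00000025332). Kdm1a, the flavin-dependent demethylase of the CoREST complex, did not pass although its groups did not overlap, at 20.6, 21.1 and 22.2 FPKM in the knockout and 26.8, 25.8 and 29.9 FPKM in the wild type (log2 change -0.35, limma adjusted p = 0.102). Its value moved little with the trend removed (-0.29). Kdm5a (log2 change -0.34) and Kdm1b (-0.12) did not pass either.

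Kdm3b, which removes H3K9 mono- and dimethylation, was at 2.48, 2.498 and 3.80 FPKM in the knockout, against 5.14, 5.54 and 4.74 FPKM in the wild type (log2 change -0.66, SE 0.169, limma adjusted p = 0.0338, n = 3 each), and at -0.16 with the trend removed. Kdm3b lies on chromosome 18, 34777047 to 34838660, plus strand (ENSMUSG00000038773), and shares 24.6% of its exonic bases with the opposite-strand Gm26538, listed at 0 FPKM. The other H3K9 erasers tested, Kdm3a and the H3K9 and H3K36 erasers Kdm4a, Kdm4b and Kdm4c, had changes of -0.44 to -0.016 and did not pass. Kdm4a was the nearest of them, at 14.1 to 16.8 FPKM in the knockout and 17.9 to 24.6 FPKM in the wild type (limma adjusted p = 0.0862). Kdm2a, which demethylates H3K36 and binds unmethylated CpG through a zinc finger, was at 4.48, 4.84 and 7.09 FPKM in the knockout, against 12.9, 7.68 and 9.21 FPKM in the wild type (log2 change -0.75, SE 0.211, limma adjusted p = 0.043), and at -0.34 (95% interval -0.64 to -0.05) with the trend removed. Kdm2a lies on chromosome 19, 4314419 to 4398285, minus strand (ENSMUSG00000054611). Its paralogue Kdm2b, a subunit of a variant Polycomb repressive complex, was at 1.67, 2.27 and 2.36 FPKM in the knockout and 3.02, 3.64 and 3.15 FPKM in the wild type without passing (log2 change -0.47, limma adjusted p = 0.0726). Kdm8, a further JmjC protein, differed by -0.088.

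**Figure D2:**
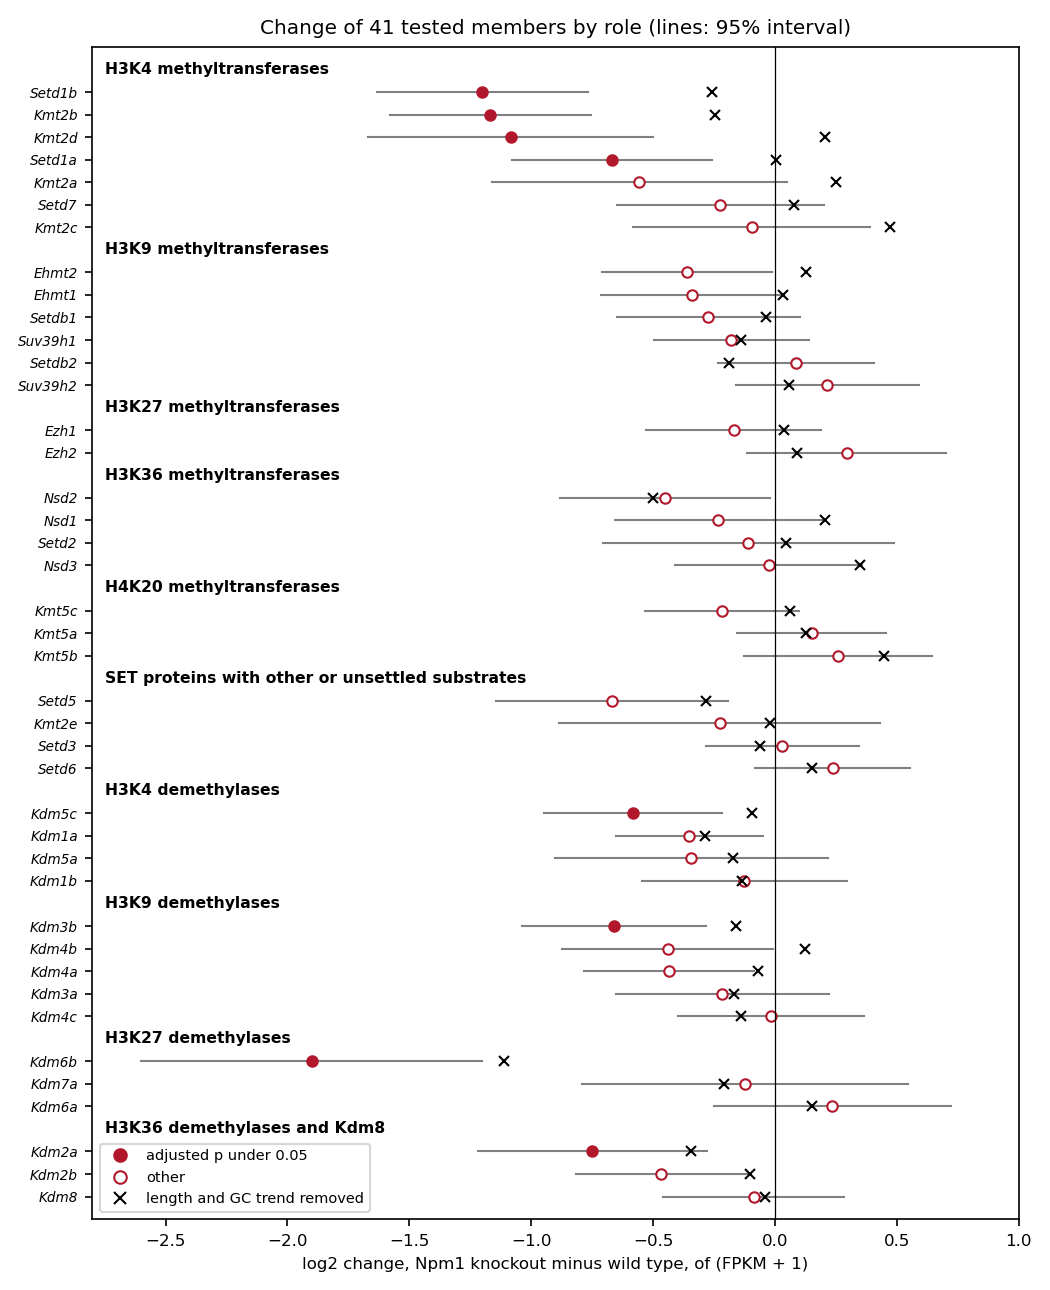
Log2 change of each tested member, grouped by the residue its product acts on, with limma's 95% interval as a line. Filled points passed at an adjusted p under 0.05, and crosses give the change with the length and GC trend removed, where Kdm6b stands at -1.11 and 0 members passed.

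No writer of H3K9, H3K27, H3K36 or H4K20 methylation passed. Ehmt2, which forms a heterodimer with Ehmt1 that dimethylates H3K9, was the most abundant member, at 44.4, 43.9 and 49.1 FPKM in the knockout and 50.1, 59.8 and 68.5 FPKM in the wild type. Its groups did not overlap, but the difference missed the threshold (log2 change -0.36, limma adjusted p = 0.14) and was at 0.13 with the trend removed. Ehmt1 (-0.34), Setdb1 (-0.27), Suv39h1 (-0.18), Setdb2 (0.087) and Suv39h2 (0.21), which also act on H3K9, ran from below to above 0. Ezh2, the catalytic subunit of Polycomb repressive complex 2 in dividing cells, had the highest change of the 41, at 6.04, 7.08 and 7.15 FPKM in the knockout and 7.07, 5.09 and 4.11 FPKM in the wild type. Its groups overlapped (log2 change 0.29, 95% interval -0.11 to 0.70, limma adjusted p = 0.287). Ezh1 differed by -0.17.

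Of the H3K36 writers, Nsd2 was at 4.99, 7.30 and 8.91 FPKM in the knockout, against 10.3, 10.6 and 8.61 FPKM in the wild type (log2 change -0.45, limma adjusted p = 0.137). It was the only member besides Kdm6b at or below -0.50 with the trend removed (-0.50, limma adjusted p = 0.137). Nsd1 (-0.23), Nsd3 (-0.026) and Setd2 (-0.11), the enzyme for H3K36 trimethylation, were nearer to 0. The H4K20 writers Kmt5a (0.15), Kmt5b (0.26) and Kmt5c (-0.22) did not pass. Kmt5b, a writer of H4K20 di- and trimethylation, was at 2.23, 2.25 and 2.89 FPKM in the knockout and 2.47, 1.697 and 1.56 FPKM in the wild type, and at 0.45 with the trend removed (limma adjusted p = 0.0573, the lowest of the 41 in that fit). Kmt5a, which monomethylates H4K20 in the cell cycle, was among the more abundant members, at 26.5, 26.7 and 24.6 FPKM in the knockout and 25.5, 22.9 and 21.4 FPKM in the wild type. Of the SET proteins with other or unsettled substrates, Setd5 came nearest to the threshold, at 3.81, 4.36 and 6.82 FPKM in the knockout and 10.4, 6.71 and 8.25 FPKM in the wild type (log2 change -0.67, limma adjusted p = 0.0611). Kmt2e (-0.23), the actin histidine methyltransferase Setd3 (0.031) and Setd6 (0.24) did not pass. The scaling bears on the smallest of these: Setd3 was at -0.079 after rescaling to TPM, and Nsd3 and Kdm4c were at 0.0096 and 0.011 after quantile normalization.

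By class, 4 of 15 erasers and 4 of 22 writers fell, where 8.30% of all genes tested fell. Their medians were -0.35 and -0.22, with no test of that difference. The remaining 4 tested members, the SET proteins named last, had a median of -0.10. With the trend removed the medians were -0.14 for the erasers and 0.06 for the writers.

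Transcript length and GC content are properties that the choice of genes did not use, and the members stood apart in length. The median of their longest annotated transcripts was 5953 bases, against 3083 bases over all genes tested, while their median GC content, 49.7%, was close to the 50.01% of all genes tested. Of the 41, 24 were in the longest of 5 equal classes of the protein-coding genes tested (transcripts of 5171 bases or more), and the 8 that fell were all among these 24 (33.3%). In that class 20.2% of all genes fell and the median change was -0.28. Over the 41 members 19.5% fell. Of the 8 members above the members' medians of both length and GC content, 7 fell. The share of all genes tested above both values was not computed, so this count does not set the members apart from other long, GC-rich genes. Across the 41 members, Spearman's rho of the change was -0.488 with length and -0.557 with GC content, given as a description since these points share the 6 libraries. After removal of the trend these were 0.00941 and 0.0437.

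Among the pairs of paralogues below, the member that fell had the higher GC content, except for Kdm2a, while length went both ways. Kmt2d, with a GC content of 58.4% and a longest transcript of 19823 bases, fell, while Kmt2c, with 47.6% and 14967 bases, did not pass. Kdm6b, with 59.6% and 6654 bases, fell, while Kdm6a, with 42.5% and 5935 bases, did not pass. Kmt2b, with 59.1% and 8469 bases, fell, while Kmt2a, with 50.6% but 16470 bases, did not pass. Kdm3b, with 53.1% and 6363 bases, fell, while Kdm3a, with 45.5% and 4853 bases, did not pass. Kdm5c, with 52.8% and 6449 bases, fell, while Kdm5a, with 43.3% but 10944 bases, did not pass. Kdm2a, with 48.3% and 8578 bases, fell, while Kdm2b, with the higher GC content of 52.6% and 5180 bases, did not pass.

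**Figure D3:**
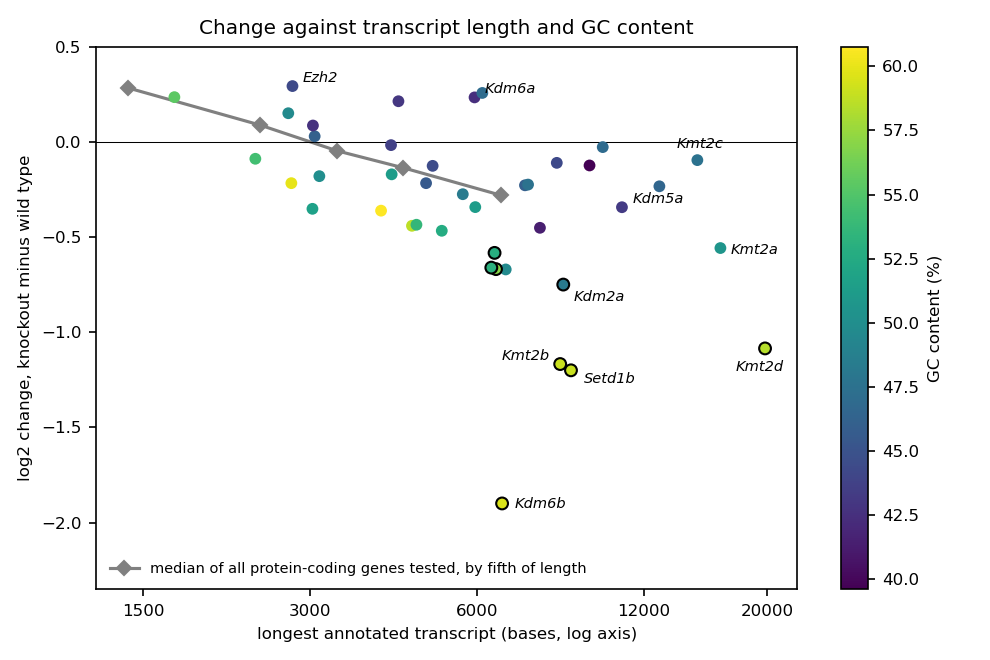
Log2 change of the 41 members against the length of the longest annotated transcript (log axis), coloured by GC content, with black outlines for the 8 that fell. Grey diamonds give the median change of all protein-coding genes tested in each of 5 length classes, which reaches -0.28 in the longest.

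The libraries of a group did not behave alike. Knockout replicate 3 was the highest of the knockout libraries for 36 of the 41 members (87.8%), against 42.8% of all genes tested, and wild-type replicate 1 was the highest of the wild-type libraries for 25 members (61.0%, against 34.3%). Knockout replicate 3 reached the wild-type range (at or above its lowest value) for 27 members (65.9%, against 71.9% of all genes tested). Knockout replicates 1 and 2 did so for 12 members (29.3%, against 64.9%) and 13 members (31.7%, against 66.7%), fewer than over all genes. The median deviation of the members from their mean over the 6 libraries was -0.29, -0.22 and 0.10 in the knockout libraries, against 0.29, 0.07 and 0.05 in the wild-type libraries, on the log2(FPKM + 1) scale. Knockout replicate 3 therefore lay above 2 of the wild-type libraries by this measure. With the trend removed the deviations were -0.07, -0.03 and 0.07 in the knockout and 0.09, -0.09 and -0.02 in the wild type.

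Wild-type replicate 1 and knockout replicate 3 were both the highest of their groups for 22 of the 41 members (53.7%, against 22.3% of all genes tested). Kmt2e, Setd2, Kdm5a, Kmt2a, Kdm7a and Kmt2c were among these, and their groups overlapped. Setd2, for example, was at 3.79, 3.14 and 5.94 FPKM in the knockout and 7.23, 3.15 and 4.04 FPKM in the wild type. These 6 were picked after their values were seen. The 8 members that fell were also highest in knockout replicate 3 among the knockout libraries, and 5 of them were highest in wild-type replicate 1 too. Knockout replicate 3 stayed below the wild type in each of the 8. Genes whose groups overlap are less likely to pass, so this is not a separate result. Across the 41 members, Spearman's rho of a library's deviation with transcript length was -0.542, -0.715 and 0.284 in the knockout libraries and 0.802, 0.00958 and 0.207 in the wild-type libraries. With GC content it was -0.431, -0.328 and -0.735 in the knockout and -0.0866, 0.630 and 0.720 in the wild type.

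**Figure D4:**
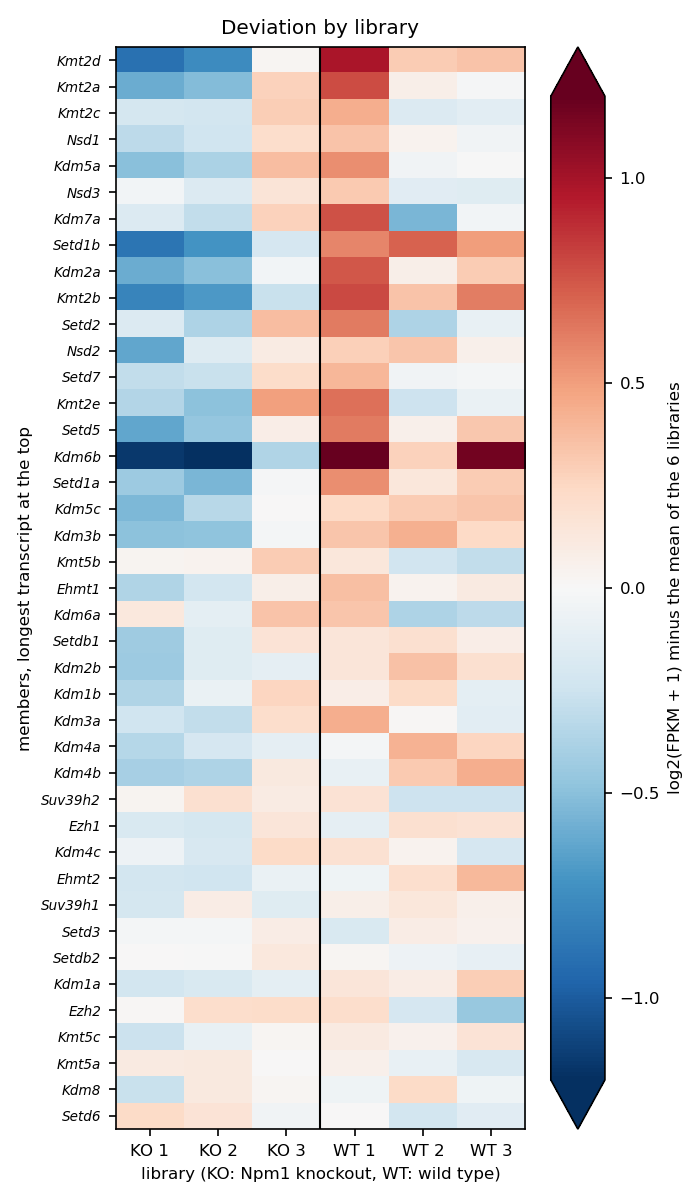
Deviation of log2(FPKM + 1) from the mean of the 6 libraries for each tested member, ordered by transcript length with the longest at the top (colour, see scale). The upper rows are low in knockout replicates 1 and 2 and high in wild-type replicate 1, and knockout replicate 3 is often on the wild-type side.

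Proteins that work with these enzymes were read from lists of complex subunits and related enzymes. Of 54 tested, 3 rose and 9 fell, with a median change of -0.16, where 5.91% of all genes tested rose and 8.30% fell. The same shares apply to each list below. In the COMPASS and MLL complexes, 1 of 13 rose and 2 fell: Psip1, a chromatin tether of the MLL complexes, was at 39.4, 31.2 and 36.4 FPKM in the knockout and 22.7, 14.8 and 16.8 FPKM in the wild type (log2 change 0.96, limma adjusted p = 0.0163), Hcfc1 changed by -0.91 and Wdr82, a partner of the Setd1 enzymes, by -0.48. Psip1 was also the only one of the 54 that passed with the trend removed (0.69, limma adjusted p = 0.0466). No Polycomb repressive complex 2 subunit passed (0 of 9, median 0.02). Of 9 H3K9 readers and cofactors, Cbx3, a heterochromatin protein, rose by a log2 change of 0.67, and Wiz, a partner of Ehmt1 and Ehmt2, and Morc2a fell by 0.84 and 0.78. Of 9 CoREST subunits, the deacetylase Hdac2 rose (0.64). Of 14 other lysine methyltransferases and JmjC proteins, 5 fell and 0 rose, among them the H3K79 methyltransferase Dot1l (-1.07), the JmjC protein Phf2 (-0.97) and the SET family member Prdm2 (-0.91), which were at -0.33, -0.39 and -0.45 with the trend removed.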

How the data were processed

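The authors deposited 1 table of FPKM values, with 1 column per library and no pooling. Among tools, the submitters' processing notes name DESeq2 1.20.0, featureCounts 1.5.0-p3, HISAT2 2.0.5 and CASAVA 1.8, without saying what each did, and the build is GRCm38 (mm10). How strand and multiply matching fragments were handled is not given in the sources used here, so a gene and an antisense partner that overlaps it cannot be told apart. FPKM times gene length, divided by the value of 1 fragment in that library, gave whole fragments for 100% of values, within 0.01 of a fragment, which is how depth was recovered.

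The test was limma 3.58.1 (R 4.3.3) on log2(FPKM + 1), two-sided, with group as its only term and a variance prior that follows the mean, for the 11287 genes whose mean reached 1 FPKM. SDs are over 3 libraries, and the error of a change is limma's standard error. Length and GC content are those of each gene's longest GENCODE vM21 transcript, and 45 of 45 members had the coordinates of the deposited table there. Their trend was removed by subtracting a smooth surface over both (mgcv 1.9.3) from each library, for 11269 genes. The fits were also run on simulated fragments, without a trend and with the same length trend in every knockout library. Trends with GC content, or that differ between libraries of a group, were not simulated. The simulation therefore does not test how the trend was removed from these data. Members, lists, tests and alternatives were chosen with earlier results of these data known. Named are the members that passed, the member that changed most in each role and up to 3 called genes of each partner list, and further members are given by level and change.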

Additional observations from a re-analysis of the deposited data

How the results depend on the processing

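The groups share replicate numbers, but deviations from the group means correlated at -0.185, 0.268 and -0.368 for numbers 1, 2 and 3, and knockout replicate 3 correlated best with wild-type replicate 1 (0.421), so the numbers do not pair the libraries. With the replicate block 3 members fell (Kdm6b, Kmt2b and Setd1b; 4.51% of all genes) and 0 rose. The number of members that fell was 5 of 21 at a mean of at least 5 FPKM, where 12.4% of all genes fell, 3 after rescaling to TPM, and 18 with 4 rising under array weights, where 24.5% of all genes fell and 23.8% rose. With no filter on low values limma called 0 members and 0 of the 24310 genes, while 13 members and 4543 genes had an unadjusted p under 0.05. Removing the trend of length and GC content, alone or together with the replicate block, left 0 calls by limma among the members and a median of -0.036. Without the block 5 members were then lower and 3 higher at an unadjusted p under 0.05. The share of all genes at that threshold was not computed, so these counts do not set the members apart. The count was 8, of the same genes, at a pseudocount of 0.1, after quantile normalization, without the mean trend in the variance and with limma-voom on recovered fragments. Leaving out each library in turn gave 0 to 12 members falling, 0 rising, and medians of -0.39 to -0.13.

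The partner count of 12 of 54 became 0 with no filter, where 0 of the 24310 genes were called. It was 31 under array weights, where 24.5% of all genes fell and 23.8% rose. Once the trend was removed it was 1, where 1.21% of all genes fell and 0.825% rose, and 0 with that and the replicate block. It was 0 to 17 when a library was left out, and the number of all genes that fell also varied then, as given above. These counts therefore do not set the partners apart from all genes. The cause was not tested for any of these changes.

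After removal of the trend, with or without the block, the direction turned for Ehmt2 at 0.13, Setd3 at -0.061, Kdm4b at 0.12, Kmt5c at 0.062, Ezh1 at 0.039, Nsd3 at 0.35, Setd7 at 0.077, Setd1a at 0.0028, Kmt2a at 0.25, Ehmt1 at 0.032, Kmt2d at 0.20, Setd2 at 0.046, Setdb2 at -0.19, Nsd1 at 0.21 and Kmt2c at 0.47. Setd3 was at -0.079 after rescaling to TPM and -0.053 under array weights, where Kdm8 was at 0.044, and quantile normalization put Nsd3 at 0.0096 and Kdm4c at 0.011. When a library was left out, the range was -0.054 to 0.084 for Setd3, -0.11 to 0.12 for Nsd3, -0.32 to 0.17 for Setd2, -0.53 to 0.049 for Kmt2e, -0.13 to 0.077 for Kdm4c, -0.28 to 0.025 for Kdm1b, -0.17 to 0.023 for Kdm8, -0.43 to 0.23 for Kdm7a and -0.26 to 0.099 for Kmt2c. Kdm6b kept its direction in 17 of 17 alternatives, from -2.24 to -1.11. So did Kdm5c, Kdm2a and Kmt2b, with highest values of -0.094, -0.34 and -0.25. Setd1b and Kdm3b kept theirs in all 16 alternatives that held them, with highest values of -0.26 and -0.16. Setd1a and Kmt2d turned, as given above. Depth limits the low members, as Setd1b had 107 fragments in knockout replicate 1.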
